A study of Mus musculus with 24 samples.

Results

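The cell cycle's G1 regulators were followed here as 9 genes: the D-type cyclins Ccnd1, Ccnd2 and Ccnd3, the kinases Cdk4 and Cdk6 that these cyclins activate, and the inhibitors Cdkn1a (p21), Cdkn1b (p27), Cdkn1c (p57) and Cdkn2b (p15). They were chosen by symbol, with earlier results of these data known, and were matched to mouse Entrez IDs among the 36528 genes of the files. All 9 were found, and all 9 passed the filter on low counts, with 77 to 23240 reads per library. The material was organoids grown from primary mouse small intestine, whose polyadenylated RNA was sequenced in 24 libraries, with 4 libraries in each of 6 groups. The groups were dFz7-21 at 24 h, Fz7-21S at 24 h, DMSO (a common solvent for such agents) at 24 h, and the same agents at 6 h. By the design text, dFz7-21 is a peptide blocker of Frizzled 7 (a cell surface receptor of the Wnt family's signals), whereas Fz7-21S is given by name alone. Genotype, strain, age and dose were not used here, and the labels do not say whether the 4 libraries of a group were grown as separate cultures. The p-values therefore speak of the scatter among these libraries, part or all of which may be technical.

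In the textbook scheme, a D-type cyclin binds Cdk4 or Cdk6 in G1, and the active kinase phosphorylates the retinoblastoma protein, which frees E2F factors to switch on the genes of DNA replication. INK4 inhibitors such as p15 bind Cdk4 and Cdk6 and keep the cyclins off, whereas the CIP/KIP inhibitors p21, p27 and p57 bind cyclin and kinase together and also restrain Cdk2. In the intestine, cells divide rapidly in the crypt under Wnt signals and leave the cycle as they move up and differentiate.

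The libraries held 20446610 to 33102993 counted reads. The epithelial marker Epcam was at 1468 to 2492 CPM (counts scaled to the size of the library, after TMM) in every library, while the glial gene Sox10 was at 0 in all 24 and the leukocyte gene Ptprc reached at most 0.221 CPM. The 8 immune markers listed summed to 5.03 to 11.5 CPM. Their sum was highest with dFz7-21 at 24 h, at 10.7 to 11.5 CPM, against at most 8.71 CPM in the other groups. The 9 endothelial and glial markers listed summed to 7.45 to 14.7 CPM. A list of 14 mesenchymal markers summed to 1125 CPM in dFz7-21 24 h replicate 3, 245 CPM in DMSO 6 h replicate 1 and 189 CPM in DMSO 6 h replicate 2, against 9.72 to 18.6 CPM in the other 21. Fz7-21S 24 h replicate 4 stood apart within its group for several of the genes described below, so results that turn on one of these 4 libraries are given with that library's value or without it.

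Read per length of transcript, the 9 genes spanned a wide range of levels. Over the 24 libraries Cdk4 had a median of 235 RPKM (range 192 to 383), where RPKM scales the reads of a gene by the length of its model and by library size. Cdkn1a followed at 182 RPKM (range 84.3 to 292), then Ccnd2 at 91.1 RPKM (range 48.8 to 114) and Ccnd1 at 47.0 RPKM (range 37.7 to 58.4). Cdkn2b had 33.4 RPKM (range 19.6 to 86.3) and Ccnd3 19.7 RPKM (range 16.2 to 23.0). The lowest were Cdkn1b at 12.4 RPKM (range 9.19 to 16.8), Cdk6 at 9.40 RPKM (range 3.51 to 11.0) and Cdkn1c at 2.10 RPKM (range 1.70 to 3.21). Cdk4 was thus the predominant G1 kinase transcript in every group and Ccnd2 the predominant D cyclin, while Cdkn1c was near the bottom throughout, with no more than 148 reads in a library.

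**Figure D1:**
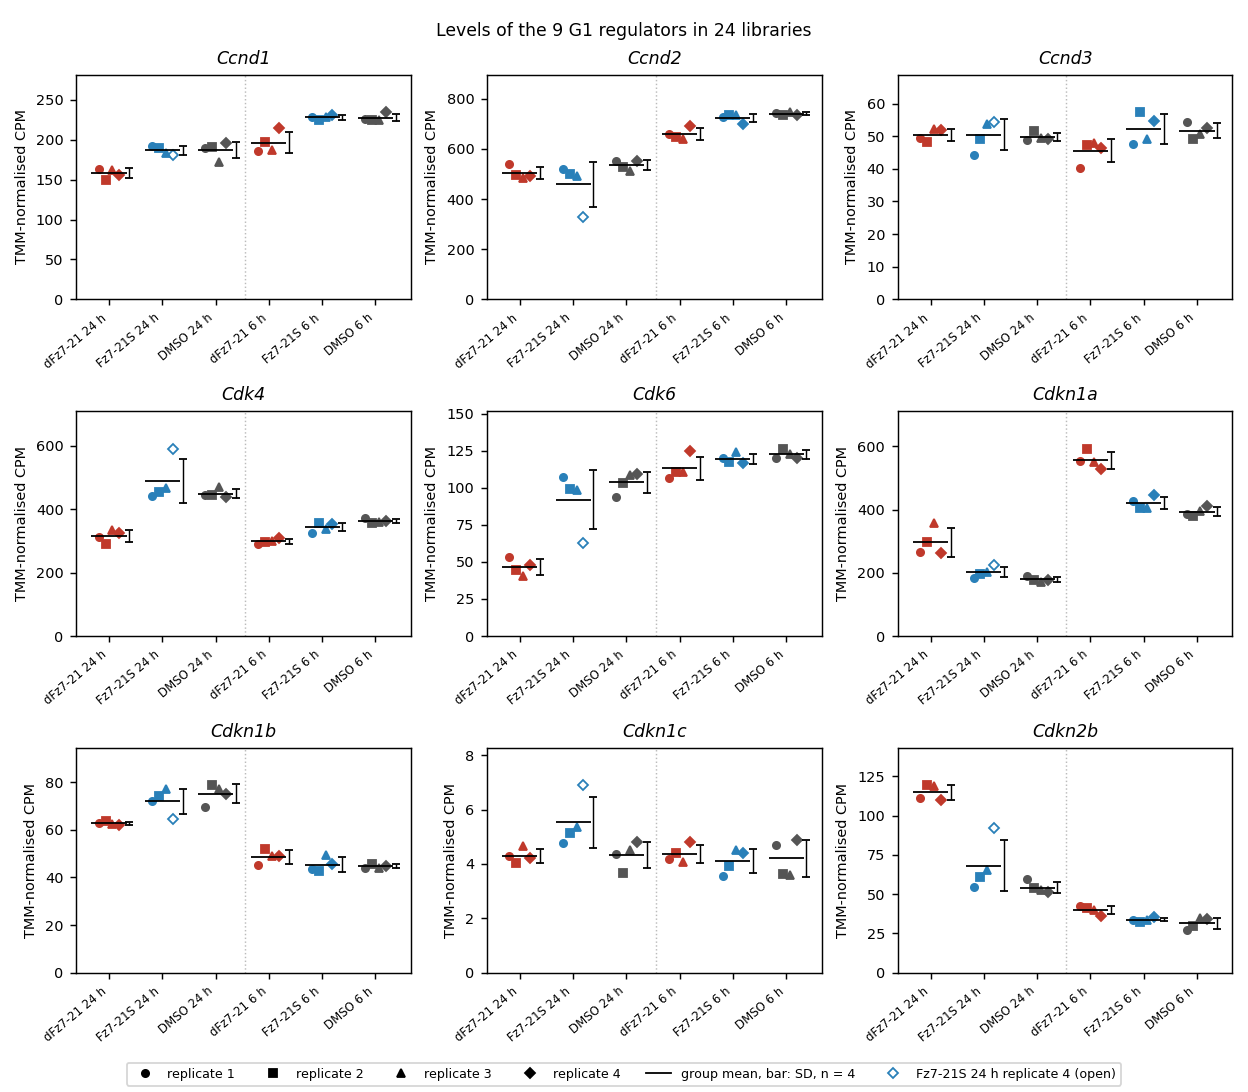
TMM-normalised CPM (vertical axes, each from 0) of the 9 genes in the 24 libraries by group, with 1 symbol per replicate number, horizontal bars for group means and error bars for the SD (n = 4). Cdk6 at 24 h lies at 40.6 to 53.2 CPM with dFz7-21, below 62.6 to 108 CPM with Fz7-21S and 94.1 to 109.7 CPM with DMSO, and the open symbol marks Fz7-21S 24 h replicate 4.

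After 24 h of dFz7-21, both kinases fell, Cdk6 to less of its DMSO level than Cdk4, and the inhibitors Cdkn1a and Cdkn2b rose. Among the 9 genes, 2 rose and 4 fell against DMSO by edgeR's quasi-likelihood test at a Benjamini-Hochberg adjusted p below 0.05, where of all 15429 genes tested 18.2% rose and 17.7% fell (35.9% called). Against Fz7-21S at 24 h, 2 rose and 5 fell, where 16.5% of all genes rose and 17.2% fell (33.7% called). At 6 h, 4 of the 9 were called against DMSO (Cdkn1a and Cdkn2b higher, Ccnd1 and Cdk4 lower), where 11.0% of all genes were called, and 1 rose and 1 fell against Fz7-21S, where 3.21% of all genes rose and 3.83% fell (7.04% called). The 6 h counts moved with the libraries in the fit. Fz7-21S 24 h replicate 4 is in no 6 h group, but all groups share the estimate of spread. Without that library, 6 of the 9 were called against DMSO and 6 against Fz7-21S. Calls over all genes went up as well in those fits, at 3134 beside 1704 against DMSO and 2259 beside 1086 against Fz7-21S. Without the 3 libraries with mesenchymal transcripts 2 of the 9 were called against DMSO, beside 698 of all genes. The median log2 fold change of the 9 against DMSO was -0.09 at 24 h and -0.11 at 6 h, beside -0.01 and 0.01 over all genes, and the median size without sign was 0.26 at 24 h and 0.18 at 6 h, beside 0.22 and 0.13 over all genes. The comparisons with DMSO and with Fz7-21S share the dFz7-21 libraries, so they are not independent of each other.

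Stretches of promoter are shown for the kinases, which fell together at 24 h, and for Cdkn2b, which rose most. Each holds the 250 bases before a RefSeq transcription start on mouse build GRCm38.p6. Capitals mark every match on either strand to CACGTG (the E-box bound by Myc family factors), CTTTGAT (a core bound by TCF/LEF, the DNA-binding partners of beta-catenin) and GGGCGG (the GC box bound by Sp1-type factors), so a match on the other strand reads ATCAAAG or CCGCCC.
Cdk4, chr10:127063285-127063534, plus strand: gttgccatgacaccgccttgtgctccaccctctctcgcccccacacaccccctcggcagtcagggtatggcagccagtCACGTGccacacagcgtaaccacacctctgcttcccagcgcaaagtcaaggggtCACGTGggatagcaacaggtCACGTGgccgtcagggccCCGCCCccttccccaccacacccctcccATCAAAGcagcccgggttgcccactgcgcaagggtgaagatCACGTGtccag
Cdk6, chr5:3343643-3343892, plus strand: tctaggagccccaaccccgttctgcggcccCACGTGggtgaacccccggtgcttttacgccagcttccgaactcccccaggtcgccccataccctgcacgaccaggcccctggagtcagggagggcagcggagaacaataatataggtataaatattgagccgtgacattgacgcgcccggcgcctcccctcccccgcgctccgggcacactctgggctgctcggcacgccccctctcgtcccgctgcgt
Cdkn2b, chr4:89311033-89311282, minus strand: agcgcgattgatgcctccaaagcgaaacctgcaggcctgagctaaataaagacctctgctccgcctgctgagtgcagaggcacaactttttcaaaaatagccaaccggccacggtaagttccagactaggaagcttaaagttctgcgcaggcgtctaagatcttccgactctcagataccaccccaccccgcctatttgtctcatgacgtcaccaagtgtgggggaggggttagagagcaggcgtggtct
The Cdk4 window holds 4 matches to CACGTG, which begin 172, 118, 98 and 11 bases before the start, with 1 CTTTGAT match 52 bases and 1 GGGCGG match 80 bases before it. The Cdk6 window holds 1 CACGTG match 220 bases before its start, and the Cdkn2b window holds none of the 3 motifs. The RefSeq span of Cdk6 begins upstream of its window, at base 3341004, so this window precedes a start inside the gene. Among 32851 promoter windows of the same length in the table, 6.02% hold CACGTG, 3.21% CTTTGAT and 32.7% GGGCGG. No marked matches overlap each other, and a match describes letters only. The table had windows for 6 of the 9 genes, with 8 starts in all. CACGTG occurred in those of Cdk4 and Cdk6 and in neither start of Ccnd3 or Cdkn1a nor that of Cdkn1b. GGGCGG occurred at Cdk4, at both starts of Ccnd3, at the downstream start of Cdkn1a and at Cdkn1b, and CTTTGAT at Cdk4 alone.

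Cdk6, the less abundant of the kinases, showed the largest fall among the 9. At 24 h it had 53.2, 44.4, 40.6 and 48.0 CPM in the 4 dFz7-21 libraries, against 108, 99.1, 98.8 and 62.6 CPM with Fz7-21S and 94.1, 103, 109 and 109.7 CPM with DMSO. Every dFz7-21 library was below every library of both other groups, and the nearest was Fz7-21S 24 h replicate 4. The log2 fold change was -1.16 ± 0.11 (SE) against DMSO, a 2.23-fold lower level (edgeR adjusted p = 1.45e-08). Against Fz7-21S it was -0.99 ± 0.11 (edgeR adjusted p = 2.49e-07), and -1.11 without Fz7-21S 24 h replicate 4. At 6 h the values were 106, 111, 111 and 125 CPM with dFz7-21, against 120.0, 117, 124 and 117 CPM with Fz7-21S and 120.5, 126, 123 and 120.2 CPM with DMSO, and the groups overlapped. The log2 difference at 6 h was -0.11 ± 0.11 against DMSO with an interval of -0.33 to 0.11 (edgeR adjusted p = 0.602). With only the groups compared it was -0.13 and passed (edgeR adjusted p = 0.0474). A term for the effect at 24 h minus that at 6 h was -1.04 ± 0.15 against DMSO (edgeR adjusted p = 3.94e-05) and -0.91 ± 0.15 against Fz7-21S (edgeR adjusted p = 2.55e-04), so the Cdk6 response was larger at the later time.

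Cdk4, the abundant partner kinase, was lower with dFz7-21 at both times. It had 312, 290.1, 334 and 326 CPM with dFz7-21 at 24 h, against 443, 456, 466 and 591 CPM with Fz7-21S and 444, 444, 471 and 438 CPM with DMSO. No dFz7-21 library reached the level of any other library at 24 h. The log2 fold change was -0.51 ± 0.07 against DMSO (1.42-fold lower, edgeR adjusted p = 1.63e-06) and -0.63 ± 0.07 against Fz7-21S (edgeR adjusted p = 8.80e-08), or -0.51 without the Fz7-21S replicate at 591 CPM. At 6 h Cdk4 had 290.0, 298, 299 and 310.0 CPM with dFz7-21, against 326, 355, 338 and 353 CPM with Fz7-21S and 373, 355, 359 and 363 CPM with DMSO, again without overlap. The fall at 6 h was -0.28 ± 0.07 against DMSO (edgeR adjusted p = 0.0062). That call was lost without the 3 libraries with mesenchymal transcripts, at -0.27 (edgeR adjusted p = 0.0714), 2 of which are the DMSO 6 h libraries that then drop out. Against Fz7-21S at 6 h the log2 difference was -0.20 ± 0.07, which did not pass (edgeR adjusted p = 0.0746). It did pass by DESeq2 (adjusted p = 0.0378), with only the groups compared (edgeR adjusted p = 6.14e-05), and without Fz7-21S 24 h replicate 1 or 4 (edgeR adjusted p = 0.0428 and 4.85e-04). The effect at 24 h minus that at 6 h was -0.43 ± 0.09 against Fz7-21S (edgeR adjusted p = 0.0028) and -0.23 ± 0.09 against DMSO (edgeR adjusted p = 0.11), where it did not pass. Without Fz7-21S 24 h replicate 4 or with only the groups compared it did (edgeR adjusted p = 0.00938 and 0.00946).

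Cdkn2b, the INK4 inhibitor p15, is known as a gene induced by TGF-beta, and it rose most of the 9. Its 24 h values were 111, 119, 119 and 110.1 CPM with dFz7-21, against 54.6, 61.0, 65.1 and 91.8 CPM with Fz7-21S and 59.4, 53.6, 52.4 and 51.0 CPM with DMSO. All 4 dFz7-21 libraries were above all 8 others, of which the highest was Fz7-21S 24 h replicate 4. The log2 fold change was 1.08 ± 0.11 against DMSO (2.12-fold higher, edgeR adjusted p = 2.63e-08) and 0.75 ± 0.11 against Fz7-21S (edgeR adjusted p = 6.52e-06), or 0.95 without that replicate. At 6 h the levels were 42.3, 41.3, 39.6 and 36.2 CPM with dFz7-21, against 33.4, 32.5, 33.8 and 35.5 CPM with Fz7-21S and 27.4, 29.4, 34.7 and 34.0 CPM with DMSO. The 6 h groups did not overlap, though the gap to the nearest control library was small. The log2 difference of 0.35 ± 0.11 against DMSO just passed (edgeR adjusted p = 0.0418) and rested on the choice of libraries: 15 of 24 fits that each left out 1 library did not call it, with adjusted p from 0.0506 to 0.156, and neither did the fit with no filter on low counts (0.0643). Without the 3 libraries with mesenchymal transcripts it was 0.21 (edgeR adjusted p = 0.525). It was 0.33 and passed more clearly without Fz7-21S 24 h replicate 4, which is in neither group (edgeR adjusted p = 4.21e-04). Against Fz7-21S at 6 h it was 0.24 ± 0.11 (edgeR adjusted p = 0.249). That difference passed with only the groups compared (edgeR adjusted p = 0.00289) and, at 0.23, without Fz7-21S 24 h replicate 4 (0.0198). The effect at 24 h exceeded that at 6 h by 0.74 ± 0.15 against DMSO (edgeR adjusted p = 0.00175) and by 0.52 ± 0.15 against Fz7-21S (edgeR adjusted p = 0.0285, but 0.0616 without Fz7-21S 6 h replicate 4).

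**Figure D2:**
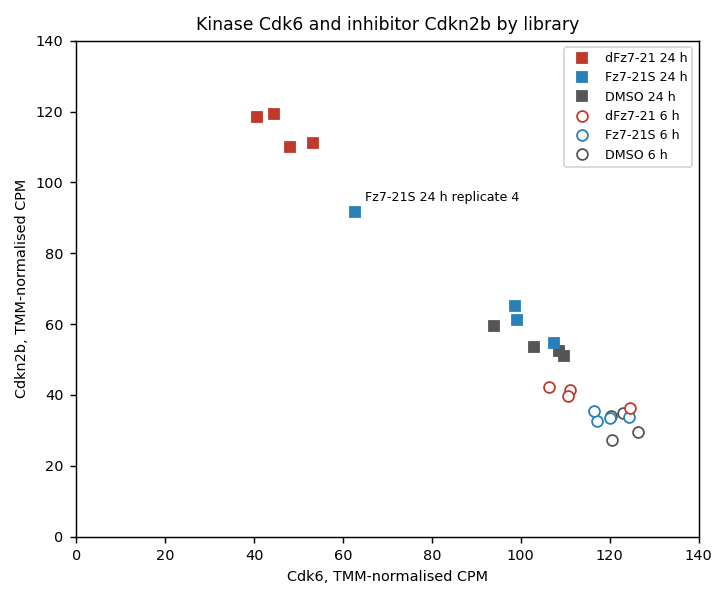
Cdk6 (horizontal axis) against Cdkn2b (vertical axis), both in TMM-normalised CPM, with 1 point per library, squares for 24 h and open circles for 6 h. The 4 dFz7-21 24 h libraries lie apart at 40.6 to 53.2 CPM of Cdk6 and 110.1 to 119 CPM of Cdkn2b, and Fz7-21S 24 h replicate 4 at 62.6 and 91.8 CPM lies between them and the others.

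Cdkn1a, the inhibitor p21 and a classic target of p53, was higher with dFz7-21 at both times. At 24 h it had 266, 297, 359 and 263 CPM with dFz7-21, against 183, 197, 204 and 223 CPM with Fz7-21S and 189, 178, 172 and 177 CPM with DMSO, without overlap. The highest dFz7-21 value came from replicate 3, the library with the most mesenchymal transcripts. The log2 fold change was 0.72 ± 0.08 against DMSO (1.65-fold higher, edgeR adjusted p = 6.24e-08), and 0.62 without the 3 libraries with mesenchymal transcripts (edgeR adjusted p = 2.12e-07). Against Fz7-21S it was 0.55 ± 0.08 (edgeR adjusted p = 4.20e-06). At 6 h the values were 555, 593, 550.1 and 527 CPM with dFz7-21, against 427, 405, 404 and 445 CPM with Fz7-21S and 386, 379, 394 and 412 CPM with DMSO, a rise of 0.50 ± 0.08 over DMSO (edgeR adjusted p = 5.59e-05) and 0.40 ± 0.08 over Fz7-21S (edgeR adjusted p = 0.00114). Here too the dFz7-21 libraries lay above all others of their time. Cdkn1a was the one inhibitor called at 6 h against both other agents. Whether its effect differed between the times did not pass the test, with 0.22 ± 0.11 for 24 h minus 6 h against DMSO (edgeR adjusted p = 0.194). That term passed without Fz7-21S 24 h replicate 4 (edgeR adjusted p = 0.0468).

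Cdkn1b, the inhibitor p27, went the other way at 24 h. It had 62.9, 63.8, 62.4 and 62.2 CPM with dFz7-21, against 72.1, 74.2, 77.2 and 64.5 CPM with Fz7-21S and 69.7, 78.8, 77.1 and 75.1 CPM with DMSO. The dFz7-21 libraries were close together and below the rest, with Fz7-21S 24 h replicate 4 just above them. The log2 fold change was -0.26 ± 0.06 against DMSO (edgeR adjusted p = 0.00126) and -0.20 ± 0.06 against Fz7-21S (edgeR adjusted p = 0.012). The latter was -0.22 without Fz7-21S 24 h replicate 4 (edgeR adjusted p = 0.00119). The call against Fz7-21S did not hold when dFz7-21 24 h replicate 1, 3 or 4 or Fz7-21S 24 h replicate 2 or 3 was left out (edgeR adjusted p = 0.0525 to 0.107), nor with no filter on low counts (0.0532) or only the groups compared (0.0693). At 6 h Cdkn1b averaged 48.7 ± 2.86 CPM with dFz7-21, 45.4 ± 3.13 CPM with Fz7-21S and 44.7 ± 0.850 CPM with DMSO (SD, n = 4 each), and neither difference passed. The 24 h effect minus the 6 h effect was -0.38 ± 0.08 against DMSO (edgeR adjusted p = 0.00268).

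Cdkn1c, the imprinted inhibitor p57, was scarce and showed no difference from DMSO that passed at either time. It averaged 4.30 ± 0.257 CPM with dFz7-21 at 24 h, against 5.54 ± 0.940 CPM with Fz7-21S and 4.34 ± 0.488 CPM with DMSO (SD, n = 4 each). Against DMSO the interval of the log2 difference was -0.30 to 0.27 at 24 h and -0.23 to 0.33 at 6 h, wider than for the more abundant genes. It was lower than with Fz7-21S at 24 h by a log2 fold change of -0.36 ± 0.14 (edgeR adjusted p = 0.0418). That call was lost in 13 of 24 fits with 1 library left out, and the value was -0.22 (edgeR adjusted p = 0.248) without Fz7-21S 24 h replicate 4, which had 6.90 CPM. It was lost as well with RLE size factors (edgeR adjusted p = 0.0602), with no filter (0.11), with only the groups compared (0.126) and by DESeq2 (0.0558).

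Of the D cyclins, Ccnd1 alone passed the test, and its fall was modest. It had 164, 150.0, 162 and 156 CPM with dFz7-21 at 24 h, against 192, 190.3, 183 and 181 CPM with Fz7-21S and 189.5, 191, 173 and 196 CPM with DMSO. At 6 h it had 186, 197, 188 and 215 CPM with dFz7-21, against 228, 225, 228 and 232 CPM with Fz7-21S and 226, 225, 225 and 235 CPM with DMSO. At each time the dFz7-21 libraries were below all others. The log2 fold change against DMSO was -0.25 ± 0.05 at 24 h (edgeR adjusted p = 2.89e-04) and -0.21 ± 0.05 at 6 h (edgeR adjusted p = 0.00371). Against Fz7-21S it was -0.24 ± 0.05 at 24 h (edgeR adjusted p = 4.10e-04) and -0.22 ± 0.05 at 6 h (edgeR adjusted p = 0.00554). The 24 h effect minus the 6 h effect had an interval of -0.17 to 0.11 against DMSO, and it did not pass.

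Ccnd2, the most abundant D cyclin, had 540.1, 497, 485 and 493 CPM with dFz7-21 at 24 h, against 519, 499, 492 and 327 CPM with Fz7-21S and 551, 529, 513 and 552 CPM with DMSO, and the groups overlapped. At 6 h it had 661, 646, 641 and 693 CPM with dFz7-21, against 727, 734, 733 and 697 CPM with Fz7-21S and 744, 737, 747 and 733 CPM with DMSO, and the dFz7-21 libraries were all lower. The log2 difference from DMSO was -0.09 ± 0.09 at 24 h (edgeR adjusted p = 0.446) and -0.17 ± 0.09 at 6 h (edgeR adjusted p = 0.258). The 6 h test shares its estimate of spread with all groups, and it turned on Fz7-21S 24 h replicate 4, whose Ccnd2 value of 327 CPM lay far below its group: without that library the 6 h difference was -0.18 ± 0.04 (edgeR adjusted p = 0.001). The Ccnd3 call at 6 h also turned on Fz7-21S 24 h replicate 4. In that library Ccnd3 was at 54.4 CPM, near the 53.8 CPM of replicate 3 of its group. Ccnd3 averaged 45.5 ± 3.53 CPM with dFz7-21 at 6 h, 52.3 ± 4.57 CPM with Fz7-21S and 51.7 ± 2.23 CPM with DMSO (SD, n = 4 each). Its 6 h difference from DMSO was -0.18 ± 0.07 (edgeR adjusted p = 0.0983), and -0.19 without Fz7-21S 24 h replicate 4 (edgeR adjusted p = 0.0229). At 24 h Ccnd3 averaged 50.4 ± 1.86 CPM with dFz7-21, 50.4 ± 4.70 CPM with Fz7-21S and 49.8 ± 1.29 CPM with DMSO. It differed from DMSO by 0.02 ± 0.07, with an interval of -0.12 to 0.16 (edgeR adjusted p = 0.857).

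**Figure D3:**
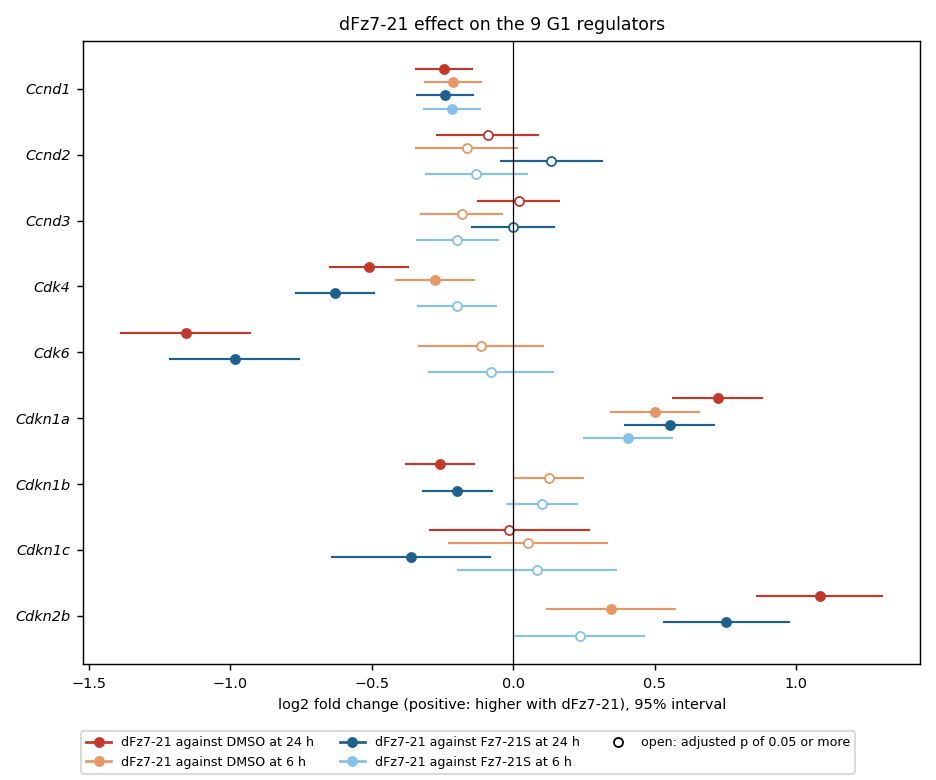
Log2 fold change (horizontal axis; positive is higher with dFz7-21) of the 9 genes against DMSO and against Fz7-21S at 24 h and 6 h, with 95% intervals from the edgeR fit and filled points where the adjusted p is below 0.05. Cdk6 and Cdkn2b lie farthest from 0 at 24 h, at -1.16 and 1.08 against DMSO, while the Ccnd3 interval at 24 h spans 0.

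Fz7-21S, set against DMSO, gave no call among the 9 genes at either time by edgeR, nor by DESeq2. At 24 h 0.259% of all genes tested were called and at 6 h 0.00648%. At an unadjusted p below 0.05, 4 of the 9 passed at 24 h and 0 at 6 h. The 4 were Cdkn2b at 0.33 ± 0.11 (edgeR adjusted p = 0.162), Cdkn1c at 0.35 ± 0.13, Ccnd2 at -0.22 ± 0.09 and Cdkn1a at 0.17 ± 0.08 on the log2 scale. For Cdkn2b the 3 Fz7-21S libraries other than replicate 4 had 54.6 to 65.1 CPM, beside 51.0 to 59.4 CPM with DMSO. Without Fz7-21S 24 h replicate 4 the Cdkn2b difference was 0.15 (edgeR adjusted p = 0.627), and without Fz7-21S 24 h replicate 1 it was 0.41 (edgeR adjusted p = 0.0369), so 1 library moved it across the threshold. Without replicate 4 the others shrank as well, to 0.22 for Cdkn1c, -0.09 for Ccnd2 and 0.12 for Cdkn1a (edgeR adjusted p = 0.777, 0.615 and 0.757). Ccnd2 passed without replicate 1 (edgeR adjusted p = 0.0486).

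Most of the 9 genes also moved between the 2 times without dFz7-21: Cdkn1a was lower and Cdkn1b and Cdkn2b were higher at 24 h. In DMSO, 3 rose and 3 fell at 24 h relative to 6 h, where 27.3% of all genes rose and 24.9% fell (52.2% called). Under dFz7-21, 2 rose and 4 fell, where 29.8% of all genes rose and 30.1% fell (59.9% called). Under Fz7-21S 4 rose and 4 fell, where 31.0% of all genes rose and 28.1% fell (59.1% called). These 3 comparisons use different libraries. Cdkn1a averaged 179 ± 7.29 CPM in DMSO at 24 h, against 393 ± 14.3 CPM at 6 h (SD, n = 4 each), a log2 fold change of -1.13 ± 0.08 (edgeR adjusted p = 1.00e-11). Under dFz7-21 it fell by 0.91 on the log2 scale (edgeR adjusted p = 2.12e-10), and its 24 h level with dFz7-21 was still below that of DMSO at 6 h. Cdkn1b showed the opposite course, at 75.2 ± 3.95 CPM in DMSO at 24 h against 44.7 ± 0.850 CPM at 6 h. Its rise was 0.37 ± 0.06 under dFz7-21 (edgeR adjusted p = 1.02e-05) and 0.75 ± 0.06 in DMSO (edgeR adjusted p = 1.54e-10). Cdkn2b rose in all 3 arms, by 1.53 ± 0.11 under dFz7-21, 1.01 ± 0.11 under Fz7-21S and 0.79 ± 0.11 in DMSO.

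The kinases parted from each other over time. Under dFz7-21 the Cdk4 level at 24 h relative to 6 h differed by 0.08 ± 0.07 on the log2 scale and did not pass (edgeR adjusted p = 0.328, or 0.0312 without Fz7-21S 24 h replicate 4). In DMSO Cdk4 rose by 0.31 ± 0.07 (edgeR adjusted p = 3.74e-04). Cdk6 differed by -0.24 ± 0.11 in DMSO, which did not pass (edgeR adjusted p = 0.0639) but did without Fz7-21S 24 h replicate 4 (edgeR adjusted p = 8.27e-04) or with only the groups compared (3.22e-04). Under dFz7-21 it fell by 1.28 (edgeR adjusted p = 4.52e-10), a 2.43-fold lower level at 24 h. Under Fz7-21S Cdk6 fell by 0.38 and Cdk4 rose by 0.51 ± 0.07, and both values include replicate 4 at 24 h; without it they were -0.24 and 0.40. The D cyclins Ccnd1 and Ccnd2 fell with time in every arm. Ccnd2 fell by 0.39 under dFz7-21 and 0.47 in DMSO, and Ccnd1 fell by 0.31 under dFz7-21 and 0.28 in DMSO. Ccnd3 passed in none of the arms, with intervals of 0.00 to 0.29 under dFz7-21 and -0.20 to 0.09 in DMSO, although the dFz7-21 difference passed in 6 of 24 fits with 1 library left out.

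The tests of the time difference itself called 3 of the 9 against DMSO, 1 toward a higher and 2 toward a lower effect at 24 h, where 7.37% of all genes were called higher and 5.78% lower (13.2% in all). Against Fz7-21S they called 4 of the 9, 1 higher and 3 lower, where 5.83% of all genes were called higher and 5.10% lower (10.9% in all). Cdk6, Cdkn1b and Cdkn2b were called in both, and Cdk4 against Fz7-21S. Without Fz7-21S 24 h replicate 4, 5 of the 9 were called against DMSO, beside 3756 of all genes in place of 2029. The Cdkn1b term against Fz7-21S was -0.30 ± 0.08 (edgeR adjusted p = 0.0209), and -0.32 without Fz7-21S 24 h replicate 4 (0.00217). It was lost in 11 of 24 fits with 1 library left out. With no filter on low counts (edgeR adjusted p = 0.0865) and with only the groups compared (0.0929) it was lost as well.

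Summed per length within each class, the transcripts shifted in different directions. Cdk4 and Cdk6 together made 214 ± 11.9 RPKM with dFz7-21 at 24 h, 327 ± 41.1 RPKM with Fz7-21S and 305 ± 9.99 RPKM with DMSO (SD, n = 4 each). The 4 inhibitors together made 245 ± 24.0 RPKM with dFz7-21, 164 ± 18.1 RPKM with Fz7-21S and 144 ± 5.32 RPKM with DMSO. The D cyclins together made 137 ± 4.71 RPKM with dFz7-21, 135 ± 13.9 RPKM with Fz7-21S and 147 ± 5.15 RPKM with DMSO. For kinases and inhibitors the dFz7-21 libraries lay outside the range of both other groups, while for the cyclins they overlapped with both. Fz7-21S 24 h replicate 4 stood outside the other 3 of its group in each sum. Its kinases made 388 RPKM against 299.6 to 314 RPKM in those 3, its inhibitors 188 RPKM against 146 to 165 RPKM, and its D cyclins 114 RPKM against 141 to 143 RPKM. In dFz7-21 24 h replicate 3, the library with the most mesenchymal transcripts, the inhibitors made 277 RPKM, against 225 to 249.8 RPKM in the other 3 of its group. At 6 h the kinases made 208 ± 6.08 RPKM with dFz7-21, 237 ± 8.79 RPKM with Fz7-21S and 251 ± 4.53 RPKM with DMSO, and the 4 inhibitors 315 ± 15.1 RPKM with dFz7-21, 243 ± 10.4 RPKM with Fz7-21S and 228 ± 9.15 RPKM with DMSO. The D cyclins made 168 ± 6.71 RPKM with dFz7-21, 188 ± 2.14 RPKM with Fz7-21S and 191 ± 1.40 RPKM with DMSO at 6 h.

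**Figure D4:**
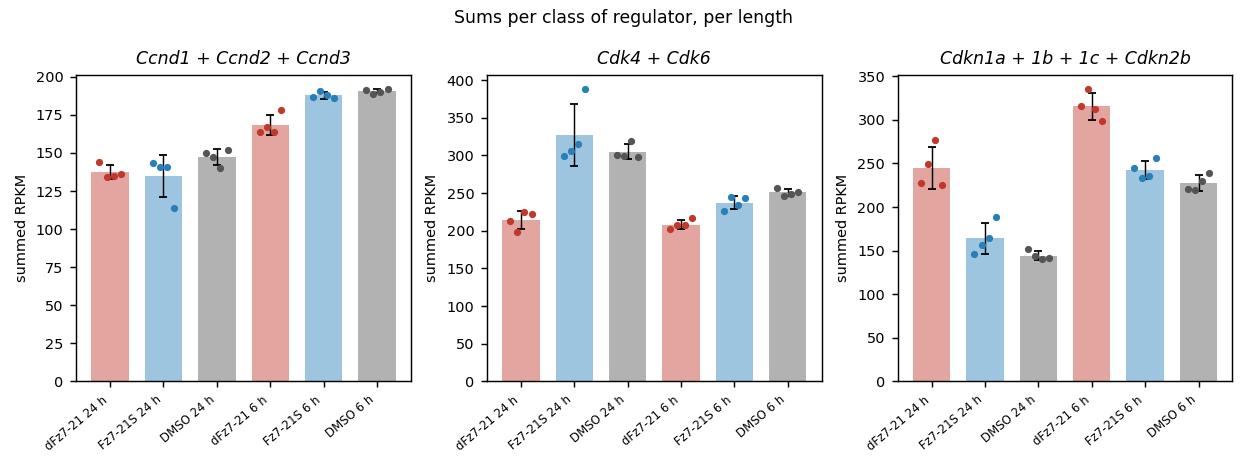
Summed RPKM (vertical axes, from 0) of the D cyclins, the kinases and the 4 inhibitors by group, with bars for means, error bars for the SD (n = 4) and points for libraries. At 24 h the kinase sum is 198 to 224 RPKM with dFz7-21 and 298 to 319 RPKM with DMSO, and the inhibitor sum is 225 to 277 RPKM with dFz7-21 and 140.3 to 152 RPKM with DMSO.

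Against DMSO, the make-up of the kinases and inhibitors shifted with dFz7-21 at 24 h. Cdk6 was 1.90 ± 0.256% of the kinase sum with dFz7-21 at 24 h, 2.48 ± 0.758% with Fz7-21S and 2.93 ± 0.193% with DMSO (SD, n = 4 each). The low Fz7-21S replicate, at 1.37%, lay below the dFz7-21 libraries, which had 1.56% to 2.18%, and the other 3 were at 2.70% to 3.08%. At 6 h Cdk6 was 4.71 ± 0.193% of the kinase sum with dFz7-21, 4.36 ± 0.260% with Fz7-21S and 4.23 ± 0.172% with DMSO, so its mean share was not lower with dFz7-21 at that time. Cdkn2b made up 33.9 ± 2.22% of the inhibitor sum with dFz7-21 at 24 h, 29.0 ± 3.42% with Fz7-21S and 26.6 ± 0.879% with DMSO. Fz7-21S 24 h replicate 4 had 34.1%, within the dFz7-21 range of 30.6% to 35.3%, and the rest of its group had 26.5% to 28.1%. At 6 h the Cdkn2b share was 9.06 ± 0.403% with dFz7-21, 9.97 ± 0.203% with Fz7-21S and 9.86 ± 0.832% with DMSO. Of the D cyclin sum, Ccnd2 made up 56.4 ± 1.33% with dFz7-21 at 24 h, 50.9 ± 5.50% with Fz7-21S and 55.3 ± 0.663% with DMSO. Ccnd1 made up 28.7 ± 0.711% with dFz7-21 at 24 h, 31.9% to 38.5% with Fz7-21S and 31.3 ± 0.672% with DMSO. Cdkn1a was the predominant CIP/KIP transcript, at 90.2 ± 1.18% of that family with dFz7-21 at 24 h and 82.8 ± 1.15% with DMSO. The ratio of Cdkn2b to Cdk6 transcripts per length was 20.7 ± 3.12 with dFz7-21 at 24 h, 6.72 ± 3.64 with Fz7-21S and 4.34 ± 0.616 with DMSO. Fz7-21S 24 h replicate 4 had a ratio of 12.1, and the other 3 of that group had 4.20 to 5.46. At 6 h it was 2.93 ± 0.379 with dFz7-21, 2.34 ± 0.121 with Fz7-21S and 2.12 ± 0.253 with DMSO. The ratio of the inhibitor sum to the D cyclin sum was 1.79 ± 0.213 with dFz7-21 at 24 h and 0.980 ± 0.0361 with DMSO, and at 6 h it was 1.88 ± 0.142 with dFz7-21 and 1.19 ± 0.0434 with DMSO. These sums and ratios are descriptions of transcripts and carry no test.

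The G1/S genes next in the pathway that changed were lower with dFz7-21. Of 11 other G1/S cyclins, kinases and activators, 5 fell and 0 rose with dFz7-21 at 24 h against DMSO, where 18.2% of all genes rose and 17.7% fell. Their median log2 fold change was -0.15 beside -0.01 over all genes. The 5 were Cdk2, which carries the cycle past G1 with cyclin E (-0.40 ± 0.06, edgeR adjusted p = 7.38e-06), the E cyclins Ccne2 (-0.45 ± 0.08) and Ccne1 (-0.33 ± 0.06), the S-phase cyclin Ccna2 (-0.15 ± 0.05) and the kinase subunit Cks1b (-0.35 ± 0.12). Cdk2 averaged 50.2 ± 4.37 CPM with dFz7-21 and 66.2 ± 3.64 CPM with DMSO (SD, n = 4 each). At 6 h, where 11.0% of all genes were called in either direction, Ccne1, Cdk2 and Ccne2 fell and 0 rose, with Ccne1 at -0.39 ± 0.06 (edgeR adjusted p = 1.51e-04).

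Among 13 pocket proteins and E2F/DP factors at 24 h against DMSO, 2 rose and 4 fell, where 18.2% of all genes rose and 17.7% fell. The median log2 fold change of the 13 was -0.11. The activator E2f1 fell, at 27.0 ± 3.25 CPM with dFz7-21 and 40.1 ± 0.691 CPM with DMSO (-0.57 ± 0.08, edgeR adjusted p = 5.69e-06). The related E2f2 rose, at 147 ± 8.61 CPM with dFz7-21 and 97.7 ± 8.84 CPM with DMSO (0.59 ± 0.06, edgeR adjusted p = 5.07e-08). The retinoblastoma gene Rb1, whose protein is the substrate of the G1 kinases, rose (0.44 ± 0.10, edgeR adjusted p = 0.00164), while the repressor E2f6 (-0.44 ± 0.06), the E2F partner Tfdp1 (-0.27 ± 0.04) and E2f7 (-0.42 ± 0.14) fell. At 6 h, where 11.0% of all genes were called in either direction, 0 rose and 4 fell: E2f1 (-0.71 ± 0.08, edgeR adjusted p = 2.22e-06), Tfdp1 (-0.19 ± 0.04), Rbl1 (-0.38 ± 0.10) and E2f8 (-0.38 ± 0.12). Several of these, E2f1 included, are themselves known E2F targets.

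Of 13 genes of the ubiquitin ligases that turn over G1 regulators, 1 rose and 5 fell at 24 h against DMSO, where 18.2% of all genes rose and 17.7% fell, with a median over the 13 of -0.07. Dtl, the receptor that brings p21 to a Cul4 ligase in S phase, fell by 0.91 on the log2 scale, at 30.0 ± 3.30 CPM with dFz7-21 and 56.3 ± 0.573 CPM with DMSO (edgeR adjusted p = 3.11e-08). Skp2, the receptor for p27, was at -0.38 ± 0.10 (edgeR adjusted p = 0.00307), Fbxw7, the receptor for cyclin E, at -0.27 ± 0.08 and the scaffold Cul4b at -0.29 ± 0.11. Cul1 also fell (-0.15 ± 0.06) and Fbxo4 rose (0.23 ± 0.09). At 6 h, where 11.0% of all genes were called in either direction, 0 rose and 3 fell, namely Dtl (-0.66 ± 0.09, edgeR adjusted p = 1.43e-05), Skp2 (-0.36 ± 0.10) and Fbxo31 (-0.22 ± 0.07).

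**Figure D5:**
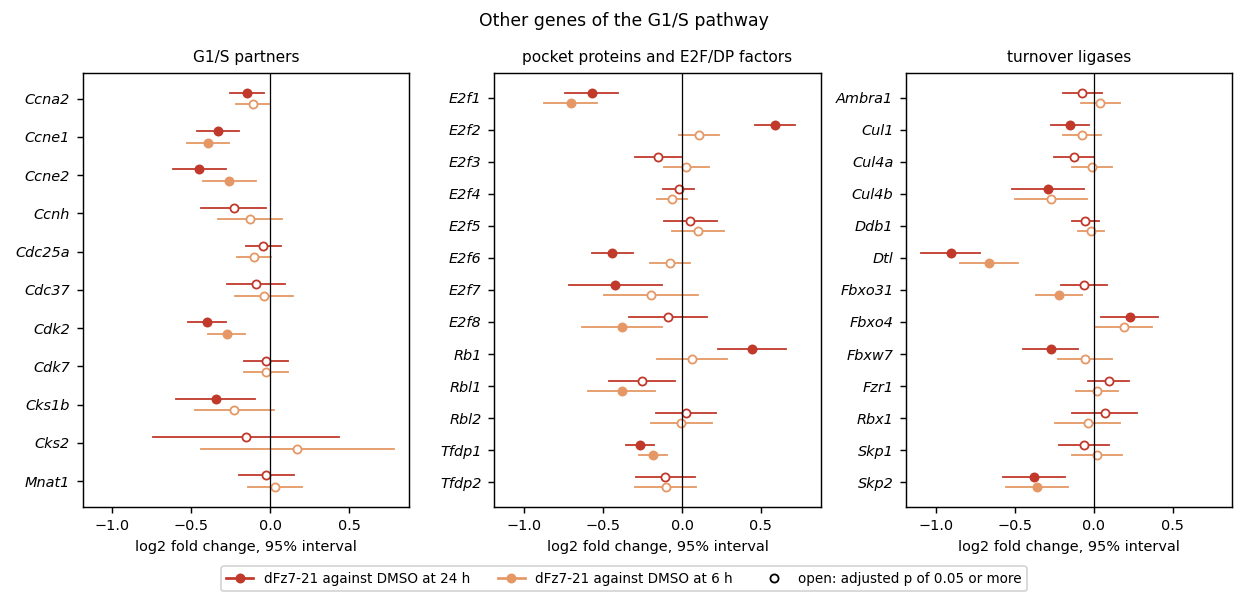
Log2 fold change of dFz7-21 against DMSO (horizontal axes; positive is higher with dFz7-21) at 24 h and 6 h for the other G1/S genes, pocket proteins and E2F factors, and turnover ligases, with 95% intervals from the edgeR fit and filled points where the adjusted p is below 0.05. Dtl at -0.91 and E2f1 at -0.57 lie farthest to the left at 24 h in their panels, and E2f2 at 0.59 farthest to the right.

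The other INK4 genes and atypical G1 cyclins and kinases, 11 in all, held 2 calls at each time, where 35.9% of all genes were called at 24 h and 11.0% at 6 h. At 24 h against DMSO Cdkn2d (p19) rose (0.42 ± 0.13, edgeR adjusted p = 0.0114) and Cables2 fell (-0.34 ± 0.07, edgeR adjusted p = 2.77e-04), with a median of -0.01. At 6 h Ccng2 rose (0.57 ± 0.08, edgeR adjusted p = 2.46e-05) and Cdkn2c (p18) fell (-0.22 ± 0.07). Of 17 p53 targets listed beside Cdkn1a, 3 rose and 1 fell at 24 h, with a median of 0.09. Of all genes 18.2% rose and 17.7% fell, so the share of p53 targets that rose was near that of all genes. Gdf15 (0.74 ± 0.16), Perp (0.23 ± 0.06) and Pmaip1 (0.20 ± 0.07) rose and Btg2 (-0.27 ± 0.04) fell. At 6 h, where 11.0% of all genes were called in either direction, Perp (0.33 ± 0.06) and Pmaip1 (0.35 ± 0.07) rose and 0 fell. Beside Cdkn1a, which rose at both times, 13 of the 17 did not pass at 24 h and 15 did not pass at 6 h.

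Cdkn1c lies on chromosome 7 among imprinted genes, and its own difference from DMSO did not pass. Of 10 listed neighbours, 2 rose and 4 fell at 24 h against DMSO, where 18.2% of all genes rose and 17.7% fell, with a median of -0.13. Ascl2, a Wnt target in crypt stem cells that also stands in the stem cell list, was at -1.51 ± 0.18 (edgeR adjusted p = 3.87e-07), the channel gene Kcnq1 at -0.82 ± 0.06, its antisense transcript Kcnq1ot1 at -0.75 ± 0.11 and the transporter Slc22a18 at 0.65 ± 0.09. Since it is not stated whether counting used the strand, reads of Kcnq1 and Kcnq1ot1 may not have been kept apart. The same limit holds for the genes that overlap 6 of the 9: Ccnd1, Ccnd2, Ccnd3, Cdk4, Cdk6 and Cdkn2b. The overlapping long noncoding RNAs counted in the files averaged 1.17 to 36.7 reads per library. The coding neighbours averaged 2236 reads for LTO1 at Ccnd1, 2441 for Bysl at Ccnd3 and 2769.5 for Tspan31 at Cdk4. These reads are of the whole neighbour, and each neighbour shares only an end of its span with the member. The Cdk4 span ends at base 127067288 and that of Tspan31 begins at base 127067287.

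Markers of cycling and of the epithelial cell types other than tuft cells moved with dFz7-21 as well. Of 20 proliferation genes, 14 fell and 0 rose at 24 h against DMSO (median -0.24), where 17.7% of all genes fell. At 6 h 11 fell and 0 rose (median -0.18), where 11.0% of all genes were called in either direction. The 7 crypt base stem cell markers summed to 309.9 to 455 CPM with dFz7-21 at 24 h, 2271 to 2569.8 CPM with Fz7-21S and 2281 to 3013 CPM with DMSO. At 6 h they summed to 1439.9 to 1646 CPM with dFz7-21, 1922 to 2034 CPM with Fz7-21S and 2069.7 to 2210.3 CPM with DMSO. The 7 enterocyte markers summed to 5408 to 6318 CPM with dFz7-21 at 24 h, 3678 to 5226 CPM with Fz7-21S and 3177 to 3774 CPM with DMSO, and the 6 Paneth cell markers to 3445 to 3987 CPM with dFz7-21, 5216 to 8402 CPM with Fz7-21S and 4948 to 5809 CPM with DMSO. The 7 goblet cell markers summed to 2945 to 3512 CPM with dFz7-21 at 24 h, 2537 to 3374 CPM with Fz7-21S and 2419.8 to 2659.7 CPM with DMSO, and the 6 enteroendocrine markers to 265 to 332 CPM with dFz7-21 at 24 h, 235 to 347 CPM with Fz7-21S and 219 to 233 CPM with DMSO. For both lists the dFz7-21 libraries lay above those with DMSO. The Fz7-21S range reached theirs only through Fz7-21S 24 h replicate 4, at 3374 CPM for goblet and 347 CPM for enteroendocrine markers. The rest of its group had 2537 to 2719 CPM and 235 to 246 CPM. That replicate also gave the highest Fz7-21S sums at 24 h for enterocyte (5226 CPM) and Paneth cell markers (8402 CPM). The 5 tuft cell markers summed to 26.6 to 30.8 CPM with dFz7-21 at 24 h, 25.4 to 29.5 CPM with Fz7-21S and 25.1 to 34.5 CPM with DMSO. These tuft cell ranges overlapped. At 24 h against DMSO all 7 stem cell markers and all 6 Paneth cell markers fell, while all 7 enterocyte, 5 of 7 goblet and 4 of 6 enteroendocrine markers rose. Of all genes 18.2% rose and 17.7% fell. In these bulk samples, fewer cells of a type and less RNA per cell cannot be told apart. The part of these shifts in the changes of the 9 genes was not tested.

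For each of the 9, genes whose log2 CPM ran most alike over the 24 libraries were looked up among 10909 named genes of sufficient level, as a description with Pearson's r. The libraries share their groups and times, so these values do not stand for 24 independent points. Cdk4 ran most like the tubulin Tubb5 (r = 0.983) and Ldb1 (0.964), and Cdk6 like Clca3b (0.972). Cdkn2b ran like Cideb (0.988) and Stap2 (0.987), and Cdkn1a like the lamin gene Lmna (0.991) and Fam214b (0.986). Ccnd1 ran like Dctd, a deaminase of nucleotide synthesis (0.972), and Prmt5 (0.959), and Ccnd2 like Xpo4 (0.980) and Mtrr (0.978). Cdkn1b ran like Cyp39a1 (0.969) and the transcription factor gene Foxo4 (0.968). The likeness was weaker for Cdkn1c with Shld1 (0.850), and for Ccnd3 with Nup62 (0.820) and Mrpl38 (0.741).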

How the data were processed

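The authors deposited, for each of the 24 libraries, a count of reads that align uniquely to each gene model, per the file headers, and an RPKM value scaled by a size factor of the library, per the file headers. Per the submitters' processing notes, GSNAP and GRCm38 were used. Aligner version, annotation and strand setting: not given in the sources used here. Of 36528 Entrez IDs, 31049 were paired with RefSeq symbols. The other 5479, with 2.55% to 3.51% of a library's counts, entered the tests without a name.

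The deposited counts were fitted with edgeR 4.0.16 in R 4.3.3 (quasi-likelihood F test, robust, TMM scaling, filterByExpr on 6 groups), with all 24 libraries in 1 model and 15429 genes. Benjamini-Hochberg adjustment ran over these genes, and an adjusted p below 0.05 was a call. Intervals are 95%. The script was tested on simulated data with known changes. RPKM entered no test and served to compare levels between genes. Replicates differed beyond sampling noise, with a chi-square of counts from 2.81 to 92.0 per degree of freedom. Groups came from the sample names in the labels.

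Members and gene lists were chosen with earlier results of these data known. Named were the 9 genes, up to 4 called genes of smallest p from each list described, all called genes where a list had 5 or fewer, and the 2 genes most alike to each member (mean log2 CPM of at least 2), of which 1 each for Cdk6 and Cdkn1c is not reported here. The other called genes named were chosen after their values were seen. The settings tried were DESeq2 1.42.0, RLE size factors, no filter, only the groups compared, a replicate block, each library left out, and 2 more chosen after seeing the data: leaving out the 3 libraries with Col1a1 above 5 CPM, and also Fz7-21S 24 h replicate 4.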

Additional observations from a re-analysis of the deposited data

Results flagged for a closer look

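In 54 sets of 4 libraries (9 genes in 6 groups), 3 held a value far from the other 3 by Dixon's test at the 95% level, and chance alone flags about 1 in 20. Ccnd2 in Fz7-21S 24 h replicate 4 was 327 CPM, against 492 to 519 CPM in its group. Cdk4 in the same library was 591 CPM, against 443 to 466 CPM. That library also had the lowest Cdk6 of its group (62.6 CPM), the highest Cdkn2b (91.8 CPM) and the highest sum of Paneth cell markers (8402 CPM). Its Cdk6 and Cdkn2b lay on the side of the dFz7-21 24 h libraries, but its Cdk4 lay on the other side. Ccnd1 in DMSO 6 h replicate 4 was 235 CPM, against 225 to 226 CPM in its group, a gap of small size.

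The effect of dFz7-21 differed between the times for 4 genes, by the edgeR test of the difference itself (24 h minus 6 h). Against DMSO the difference was -1.04 for Cdk6, -0.38 for Cdkn1b and 0.74 for Cdkn2b on the log2 scale. Against Fz7-21S it was -0.43 for Cdk4, -0.91 for Cdk6, -0.30 for Cdkn1b and 0.52 for Cdkn2b. Cdkn1b is the one whose sign also differed: it was lower than DMSO at 24 h in all 4 dFz7-21 libraries, while its 6 h difference of 0.13 did not pass.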

How the results depend on the processing

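Over 31 other settings, 3069 log2 values of the 9 genes were recomputed. Of these, 2967 kept their direction and side of the threshold (85 of them, uncalled under both, took another sign), 60 lost a call, 42 gained one and 0 called values reversed. The 6 calls against DMSO at 24 h held in every setting. With only the groups compared, members called were 7 in place of 4 against DMSO at 6 h, 6 in place of 2 against Fz7-21S at 6 h, and 5 in place of 3 for the change of the DMSO effect with time. Without the 3 libraries with mesenchymal transcripts, 2 were called against DMSO at 6 h. Without these and Fz7-21S 24 h replicate 4, 6 were called against Fz7-21S at 6 h. With 1 library left out, the counts ran from 2 to 6 against Fz7-21S at 6 h, 0 to 2 for Fz7-21S against DMSO at 24 h, and 3 to 5 for the change of the DMSO effect. The wider counts against Fz7-21S at 6 h and for the change came without Fz7-21S 24 h replicate 4. That library is in none of the groups compared there and enters through the shared fit, its estimate of spread included. Which part of that fit moved the counts was not tested.

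Over all genes, calls against DMSO at 6 h were 1704, but 3640 with only the groups compared, 698 without the 3 libraries and 3134 without Fz7-21S 24 h replicate 4. Calls against Fz7-21S were 5202 at 24 h and 2305 with only the groups compared, and at 6 h 1086, 3159 and, without the 4 libraries, 2622. For Fz7-21S against DMSO, the 40 calls at 24 h became 0 with only the groups compared, 136 by DESeq2 and 1390 without Fz7-21S 24 h replicate 1, and the 1 call at 6 h became 4 with only the groups compared or by DESeq2 and 29 without dFz7-21 24 h replicate 3. The effect changed with time for 2029 genes against DMSO (3679 without the 4 libraries, 3418 with only the groups compared) and for 1687 against Fz7-21S (3337 without the 4 libraries).

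The replicate block kept all member calls, with 6 against DMSO at 24 h and 4 at 6 h. No pairing of samples by replicate number was apparent, though such values cannot exclude it. Over 60 same-numbered pairs, the correlation of deviations ran from -0.52 to 0.32 (median 0.013). Of these, 5 were above 0.1, and in 19 of the 60 the same number ran closest. Depth limits Cdkn1c most, with 77 to 148 reads per library.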

Other observations

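Replicates of Cdkn1b were closest with dFz7-21 at 24 h, where the coefficient of variation was 1.12%, against 7.52% with Fz7-21S and 5.25% with DMSO. Cdkn1a varied most with dFz7-21, at 15.1% with dFz7-21 at 24 h, 8.22% with Fz7-21S and 4.06% with DMSO, with dFz7-21 24 h replicate 3 the farthest from the rest. Whether these spreads differ was not tested.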
